A study of Mus musculus with 10 samples.

Results

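GABA-A receptors are the chloride channels through which the transmitter GABA acts within milliseconds, and 7 of their subunit genes were followed here in mouse retinal ganglion cells with and without the chromatin organizer Satb1. The members were named by symbol: the alpha-family genes Gabra2, Gabra3, Gabra4 and Gabra5, the beta-family genes Gabrb1 and Gabrb2, and the gamma-family gene Gabrg3. All 7 were found among 23258 gene symbols, and all 7 passed the filter of at least 1 TPM in at least 5 libraries that left 11744 genes for testing. TPM is a transcript abundance per unit of length in a library scaled to a fixed total, so levels of different genes can be set side by side. The cDNA was amplified and the counting step is unknown. How far these shift the level of 1 gene against another was not tested.

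The libraries came from C57BL/6 mouse retina at postnatal day 6, from about 1000 sorted ganglion cells each. Both groups carried the Hb9-GFP reporter, which marks a class of direction-selective ganglion cells. In 5 libraries the reporter was on a wild-type background and in 5 on a Satb1-/- background, with replicates of a genotype taken from different litters. The labels name no Cre line or allele for Satb1-/- and do not say whether animals were pooled.

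A GABA-A receptor is a ring of subunits around a chloride pore. GABA binds where an alpha and a beta subunit meet, a gamma subunit beside an alpha subunit forms the benzodiazepine site and helps to hold receptors at synapses, and the choice of alpha subunit sets affinity, kinetics and placement. In the retina, amacrine cells release GABA onto ganglion cells, and the uneven GABA input from starburst amacrine cells underlies direction selectivity. Whether the chloride current excites or inhibits depends on the chloride gradient, which changes as neurons mature.

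The genes lie on 4 chromosomes (GENCODE M21 annotation, build GRCm38, the assembly called mm10). Gabrg3 (chr7:56716465-57387188) and Gabra5 (chr7:57407672-57510059) sit in tandem on the minus strand, 20483 bases apart. Gabra2 (chr5:70957597-71095849, minus strand), Gabra4 (chr5:71569749-71658308, minus strand) and Gabrb1 (chr5:71658113-72149037, plus strand) form a second group. Gabrb2 (chr11:42419757-42629028) is on the plus strand and Gabra3 (chrX:72432681-72656848) on the minus strand. The first exons of Gabra4 and Gabrb1 point away from each other and overlap over 196 bases. Whether the authors counted by strand is not known here, and without strand the reads from that overlap belong to neither gene for certain.

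The stretches before the start sites of the neighbouring pair Gabrg3 and Gabra5 and of Gabra2 are shown because these are the 3 most abundant members and the neighbours differed most between genotypes. Each is 250 bases, read 5′ to 3′ on the gene's strand, from RefSeq (GRCm38.p6). Capitals mark the GC box GGGCGG, searched on both strands.
Gabrg3, chr7:57387216-57387465, minus strand: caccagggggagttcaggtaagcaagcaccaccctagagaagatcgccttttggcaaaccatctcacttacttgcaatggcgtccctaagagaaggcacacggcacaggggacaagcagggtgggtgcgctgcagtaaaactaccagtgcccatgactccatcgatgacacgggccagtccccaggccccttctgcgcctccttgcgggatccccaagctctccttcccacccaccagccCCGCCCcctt
Gabra5, chr7:57510060-57510309, minus strand: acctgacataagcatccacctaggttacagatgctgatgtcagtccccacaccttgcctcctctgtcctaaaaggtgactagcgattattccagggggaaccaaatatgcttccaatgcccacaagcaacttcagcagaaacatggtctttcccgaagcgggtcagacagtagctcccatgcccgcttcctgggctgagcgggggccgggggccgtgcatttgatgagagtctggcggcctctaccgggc
Gabra2, chr5:71095850-71096099, minus strand: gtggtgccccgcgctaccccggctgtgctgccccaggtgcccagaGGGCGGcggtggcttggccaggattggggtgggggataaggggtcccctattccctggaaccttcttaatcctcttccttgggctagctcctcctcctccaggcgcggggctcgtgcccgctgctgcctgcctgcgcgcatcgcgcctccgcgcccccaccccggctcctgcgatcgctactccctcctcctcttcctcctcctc
RefSeq listed start sites for all 7 members, 11 windows in all. The Gabrg3 window had 60.4% G and C with 9 CpG dinucleotides and 1 GC box, the Gabra5 window 56.4% with 9 CpG and 0 GC boxes, and the Gabra2 window 70.0% with 18 CpG and 1 GC box. The median over all 32851 windows was 52.4% with 6 CpG, and 32.7% of windows held a GC box. The TATA box TATAAA (12.4% of all windows) was in none of these 3 windows. The AT-rich string AATATATTT, the core of a DNA element that SATB1 is known to bind, was in none of the 11 windows and in 0.344% of all windows. The Gabrg3 window overlaps an exon of the antisense transcript Gm9962, which stood at 1.19 to 2.50 TPM (wild-type) and 0 to 2.06 TPM (knockout).

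Across the series, 10073 to 12555 genes per library reached 1 TPM. Satb1 itself read 304, 189, 414, 132 and 38.6 TPM across wild-type 1 to 5, and knockout 1 to 5 gave 170, 126, 83.1, 34.9 and 24.1 TPM. Satb1 levels thus overlapped between the genotypes, and the labels do not say which part of the gene is missing, so this gene-level value is a weak check of genotype. Wild-type 5, knockout 4 and knockout 5 stood apart on the first principal component (scores of 88.0 to 149, the other 7 at most -14.2). Wild-type 4 stood apart on the second (-145, the other 9 at 6.87 to 43.5). The 10 ganglion cell markers (Rbpms, Slc17a6, Nefl and others) were above 0 in every library, with a summed level of 14668 to 30678 TPM (wild-type) and 12845 to 101377 TPM (knockout). Knockout 3 gave the top value, of which Nefl made up 94381 TPM. The sum hides differences between single markers. Pou4f1 read 37.4, 72.7 and 39.6 TPM in wild-type 5, knockout 4 and knockout 5, against 194 to 371 TPM in the others. Slc17a6, Pou4f2, Isl1 and Stmn2 were also lowest in these 3 libraries. Thy1 was highest in them, and Rbpms, Nefl, Nefm and Sncg did not set them apart. The 8 amacrine cell markers summed to 8.11 to 21.3 TPM and 0.421 to 16.2 TPM, and Gad1, Slc32a1, Chat and Slc18a3 were listed at 0 in at least 5 libraries. Rod markers summed to 3.89 to 479 TPM (wild-type) and 1.03 to 409 TPM (knockout), and microglia markers to 0.779 to 1225 TPM and 59.1 to 2179 TPM. Muller glia markers summed to 99.9 to 414 TPM and 78.9 to 5713 TPM. The top value was that of knockout 5, where Apoe made up 5651 TPM and Rlbp1 and Slc1a3 were listed at 0. Bipolar cell markers summed to 37.2 to 141 TPM and 12.0 to 105 TPM, with Cabp5, Grm6 and Vsx1 listed at 0 in at least 5 libraries. Horizontal cell markers, with Lhx1 at 0 in all 10 libraries, summed to 13.4 to 170 TPM and 27.0 to 47.1 TPM. Wild-type 4 gave the top value of both lists, where Otx2 made up 120 TPM and Onecut1 161 TPM. Among tested markers, the mean was higher in knockout for 6 of 6 of rods, 3 of 3 of Muller glia, 4 of 6 of microglia, 4 of 5 of bipolar, 1 of 3 of horizontal, 1 of 2 of amacrine and 2 of 10 of ganglion cells, where 3826 of all 11744 tested genes were higher. Slc6a9, a glycine transporter gene on the amacrine list, was singled out after its values were seen. It was the only marker with every knockout library (0 to 1.60 TPM) below every wild-type library (2.03 to 19.2 TPM). The same held for 0.426% of all tested genes. The log2 difference of Slc6a9 was -2.09 (SE 0.68; limma unadjusted p = 0.00636, adjusted p = 0.992). No marker passed an adjusted p of 0.05 in limma, and the part of these cell types in the subunit values was not tested. In sorted bulk samples, fewer cells of a type and less RNA per cell cannot be told apart.

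Gabrg3 was the most abundant of the 7 subunits and was lower in most knockout libraries. Wild-type 1 to 5 gave 774, 245, 443, 220 and 136 TPM. Knockout 1 to 5 gave 167, 118, 131, 113 and 90.6 TPM. The knockout libraries lay close together, and 4 of the 5 were below every wild-type library, the exception being knockout 1, which was above wild-type 5. The means were 364 ± 256 TPM and 124 ± 28.1 TPM (SD, n = 5 each), a 2.93-fold difference. On the log2(TPM + 1) scale the difference was -1.31 (SE 0.56, 95% interval -2.48 to -0.14). The two-sided exact permutation p over libraries was 0.0159, where 0.00794 is the smallest the design allows. In limma the unadjusted p was 0.0300 and the Benjamini-Hochberg adjusted p over all 11744 genes was 0.992, so Gabrg3 did not pass. Without wild-type 1, its highest library, the difference was -0.97 (limma unadjusted p = 0.112).

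Of the alpha-family genes, Gabra5 had the largest difference. Gabra5 is known for receptors outside synapses that carry a steady current. Gabra5 read 232, 210, 159, 82.5 and 24.4 TPM across wild-type 1 to 5, and knockout 1 to 5 gave 50.8, 71.6, 50.1, 38.8 and 19.3 TPM. Wild-type 1 to 4 were above every knockout library, while wild-type 5 was below 4 of them. The means were 142 ± 87.1 and 46.1 ± 19.1 TPM (SD, n = 5 each), a 3.07-fold difference, and the log2 difference was -1.35 (SE 0.67, 95% interval -2.75 to 0.05). The two-sided exact permutation p was 0.0714 and the limma adjusted p 0.992.

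Gabra2, a subunit typical of synaptic receptors on developing and mature neurons, was at 101, 151, 126, 117 and 45.8 TPM across wild-type 1 to 5. Knockout 1 to 5 gave 240, 92.7, 49.6, 41.7 and 26.3 TPM. Knockout 1 held the highest value of all 10 libraries, and the genotypes overlapped throughout. The log2 difference was -0.61 (SE 0.65, 95% interval -1.95 to 0.74), which is within the replicate spread (exact permutation p = 0.349, two-sided). It was -1.07 without knockout 1 and -0.28 without knockout 5.

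Gabra3, an X-linked alpha subunit, read 23.8, 25.9, 24.6, 8.91 and 9.99 TPM across wild-type 1 to 5, and knockout 1 to 5 gave 5.29, 11.9, 10.2, 12.3 and 1.22 TPM. Wild-type 1 to 3 were above every knockout library, and wild-type 4 and 5 lay among them. The log2 difference was -1.22 (SE 0.75, 95% interval -2.80 to 0.35; two-sided exact permutation p = 0.0794), and -0.77 without knockout 5. Gabra4, whose receptors are insensitive to classical benzodiazepines, was the least abundant member. Gabra4 read 16.5, 26.2, 7.07, 0.363 and 1.12 TPM across wild-type 1 to 5, and knockout 1 to 5 gave 2.12, 16.8, 9.68, 2.93 and 2.03 TPM. Both genotypes held high and low libraries, and the log2 difference of -0.13 (SE 0.90) had a 95% interval of -2.02 to 1.76. Wild-type 4, the library apart on the second component, had the lowest Gabra4 level, and without it the difference was -0.69. For Gabra4 the sign turned after median centring (0.24) and quantile normalization (0.23).

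The beta-family genes, whose products complete the GABA binding site, showed wide spreads. Gabrb2 read 86.3, 44.7, 43.3, 26.5 and 5.73 TPM across wild-type 1 to 5, and knockout 1 to 5 gave 84.4, 167, 54.3, 7.27 and 6.42 TPM. In both genotypes Gabrb2 was under 10 TPM in wild-type 5, knockout 4 and knockout 5 and above 25 TPM in the others. Its log2 difference was 0.11 (SE 0.90, 95% interval -1.77 to 1.996), and it turned negative on leaving out wild-type 5 or knockout 1, 2 or 3 (-0.46 to -0.06). Gabrb1 read 51.3, 22.4, 2.40, 14.5 and 9.51 TPM across wild-type 1 to 5, and knockout 1 to 5 gave 21.6, 9.65, 12.9, 7.63 and 4.72 TPM. Gabrb1 overlapped between the genotypes, with a log2 difference of -0.41 (SE 0.80, 95% interval -2.08 to 1.26), which became 0.05 without wild-type 1.

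**Figure D1:**
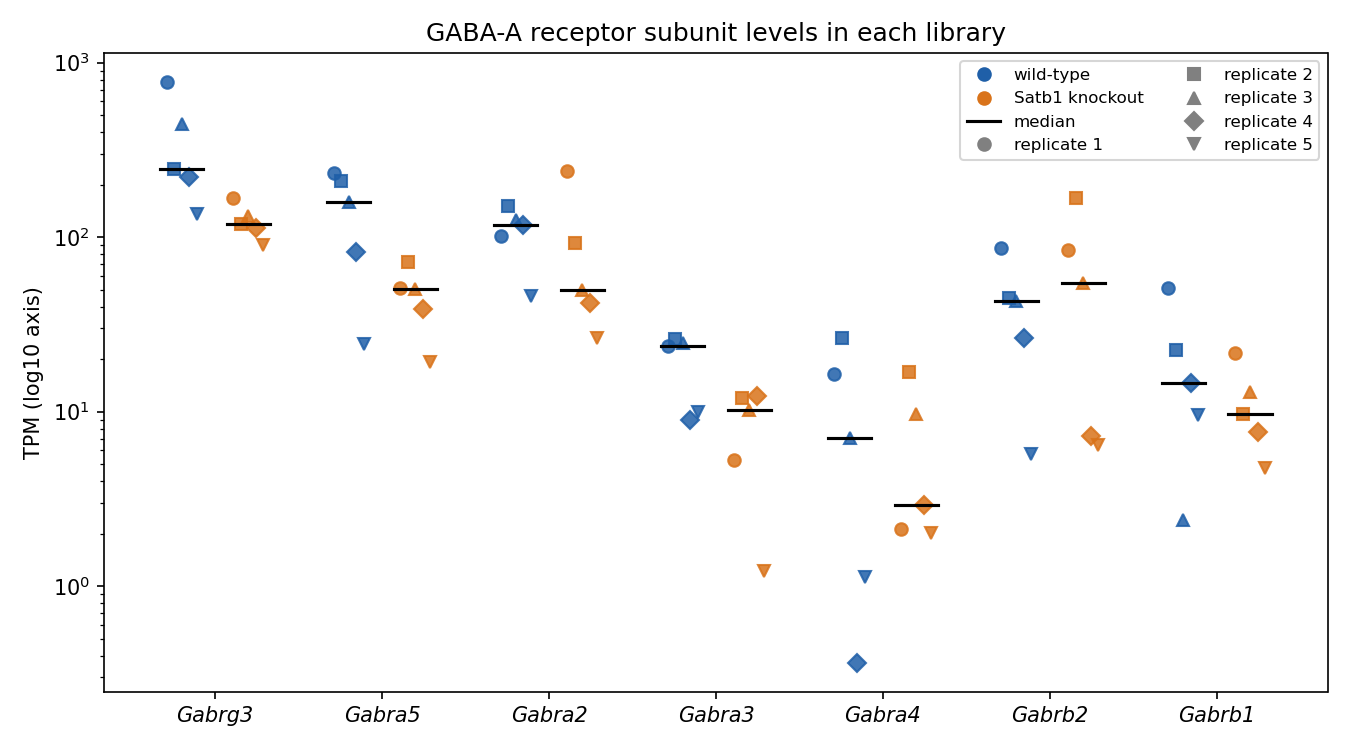
TPM (log10 axis) of each of the 7 subunit genes in each library, wild-type in blue and Satb1 knockout in orange, with a symbol per replicate number and a black line at the median of each group. Gabrg3 sits at 136 to 774 TPM (wild-type) and 90.6 to 167 TPM (knockout), and Gabra5 at 24.4 to 232 and 19.3 to 71.6 TPM. For Gabra3, wild-type 1 to 3 lie above every knockout library, and the remaining members overlap widely.

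As a group, limma called 0 of the 7 members at an adjusted p under 0.05, against 0.0% of all tested genes. At an unadjusted p under 0.05 with a lower mean in knockout it took 1 of 7 (Gabrg3), against 2.57% of all tested genes, and 1 of 7 in either direction, against 3.31% (389 of 11744 genes). The mean was lower in knockout for 6 of 7 members, where 67.4% of all tested genes were lower. The mean was lower by more than 1 on the log2 scale for 3 of 7 (Gabrg3, Gabra5 and Gabra3), against 13.5%. For 0 of 7 did every knockout value lie under every wild-type value, against 0.426% of tested genes, and for 0 of 7 did every one lie over, against 0.0766%. The median log2 difference was -0.61 for the members and -0.31 for all tested genes. The members' SEs of 0.56 to 0.90 are wide beside these differences, so a p that missed the threshold does not show equal levels.

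The median of all genes also lay below 0, and it moved with scaling. Centring each library on its median brought the median of all genes to 0.07 with 46.1% lower, and quantile normalization brought it to -0.04 with 52.3% lower. In each of these fits 5 of the 7 members were lower. Gabrg3 was then at -0.93 and -1.28, Gabra5 at -0.97 and -1.17, and Gabra3 at -0.85 and -0.86. No member passed adjustment under either scaling.

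**Figure D2:**
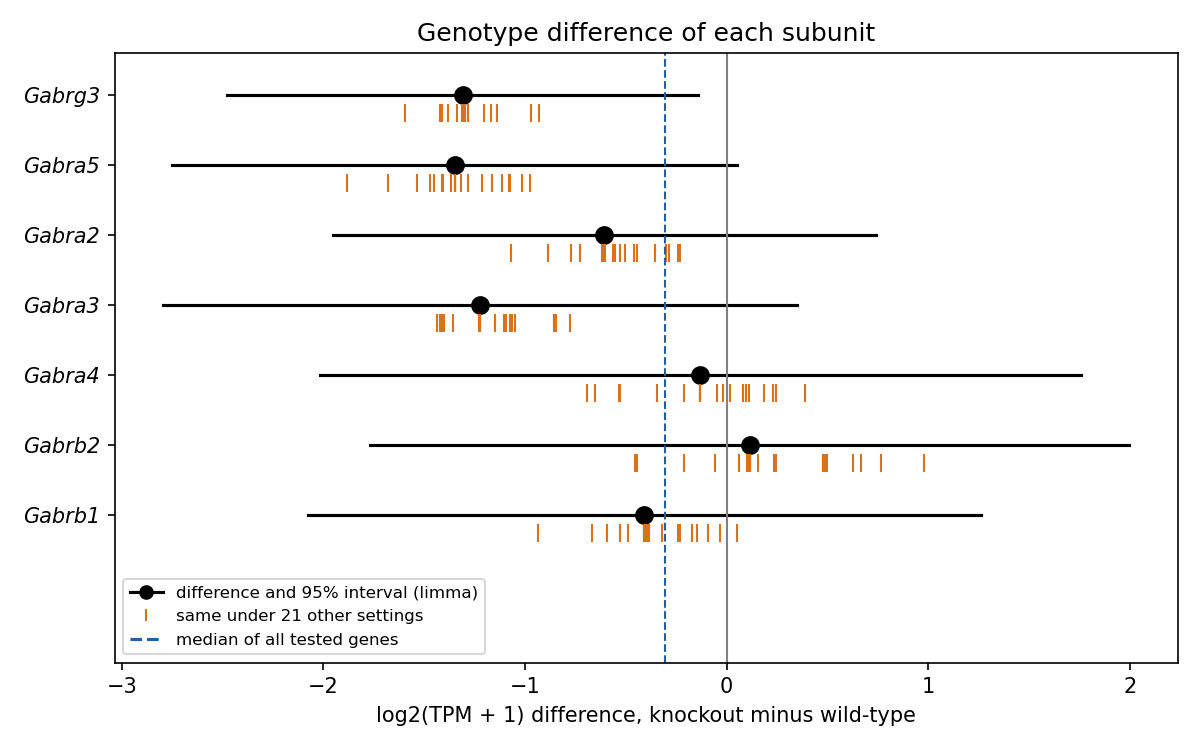
Knockout minus wild-type difference on the log2(TPM + 1) scale for each subunit (black points) with the 95% interval from limma (lines). Orange ticks show the same value under 21 other settings, the dashed line the median of all tested genes (-0.31). Gabrg3, Gabra5, Gabra2 and Gabra3 stay below 0 in all 21 settings, and Gabra4, Gabrb1 and Gabrb2 cross it.

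Gabrg3 and Gabra5 overlapped between genotypes only through wild-type 5. Leaving out wild-type 5, knockout 4 and knockout 5 therefore removed the overlap of both genes by construction. These 3 libraries were picked from these same data, so the values without them are a description and not a test. Gabrg3 was then at 220 to 774 TPM in wild-type 1 to 4 and 118 to 167 TPM in knockout 1 to 3, and Gabra5 at 82.5 to 232 and 50.1 to 71.6 TPM. All knockout 1 to 3 values were below wild-type 1 to 4 for these 2 of the 7 members, against 4.49% of all tested genes. Gabrb2 went the other way, with means of 50.2 ± 25.5 TPM (SD, n = 4) and 102 ± 58.3 TPM (SD, n = 3) and a log2 difference of 0.98. The limma adjusted p over all genes in that fit was 0.988 for each of the 3. Wild-type 5, knockout 4 and knockout 5 had low levels of most subunits: the summed TPM of the 7 was 233, 223 and 151, against 470 to 1285 in wild-type 1 to 4 and 318 to 571 in knockout 1 to 3.

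The subunit composition was described as the share of each gene in the summed TPM of the 7. Other subunit genes of the receptor lie outside these shares, which therefore give proportions within this set and not the makeup of a receptor. Gabrg3 made up 33.7% to 60.2% in wild-type (median 55.0%) and 24.3% to 60.1% in knockout (median 41.3%). Gabrg3 ranked first in all 5 wild-type libraries and in 3 knockout libraries, while Gabra2 was first in knockout 1 and Gabrb2 in knockout 2. The share of Gabrb2 was 2.46% to 6.72% in wild-type and, by library, 14.8%, 34.2%, 17.1%, 3.26% and 4.26% in knockout 1 to 5. The 3 knockout libraries with the high Gabrb2 shares were those not apart on the first component. No share separated the genotypes.

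Among the alpha-family members alone, Gabra5 and Gabra2 together held most of the TPM. Gabra5 held 62.0%, 50.8%, 50.3%, 39.5% and 30.0% of the alpha sum in wild-type 1 to 5, and 17.1%, 37.1%, 41.9%, 40.5% and 39.5% in knockout 1 to 5. Gabra2 held 27.2% to 56.4% in wild-type and 41.5% to 80.5% in knockout. Gabra5 thus exceeded Gabra2 in wild-type 1 to 3, whereas Gabra2 was the higher in 4 of 5 knockout libraries. Within a library, Gabra5 minus Gabra2 on the log2(TPM + 1) scale was 0.12 ± 0.82 in wild-type and -0.62 ± 0.91 in knockout (SD, n = 5 each). This difference between genotypes did not exceed the spread (two-sided exact permutation p = 0.246). Gabra3 held 1.77% to 12.8% and Gabra4 0.174% to 8.72% of the alpha sum over the 10 libraries. Of the sum of Gabrb1 and Gabrb2 alone, Gabrb2 held a median of 64.6% in wild-type and 79.6% in knockout, with ranges of 37.6% to 94.7% and 48.8% to 94.5%. Any other beta-family gene lies outside this sum, so the share is not one of all beta transcripts.

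**Figure D3:**
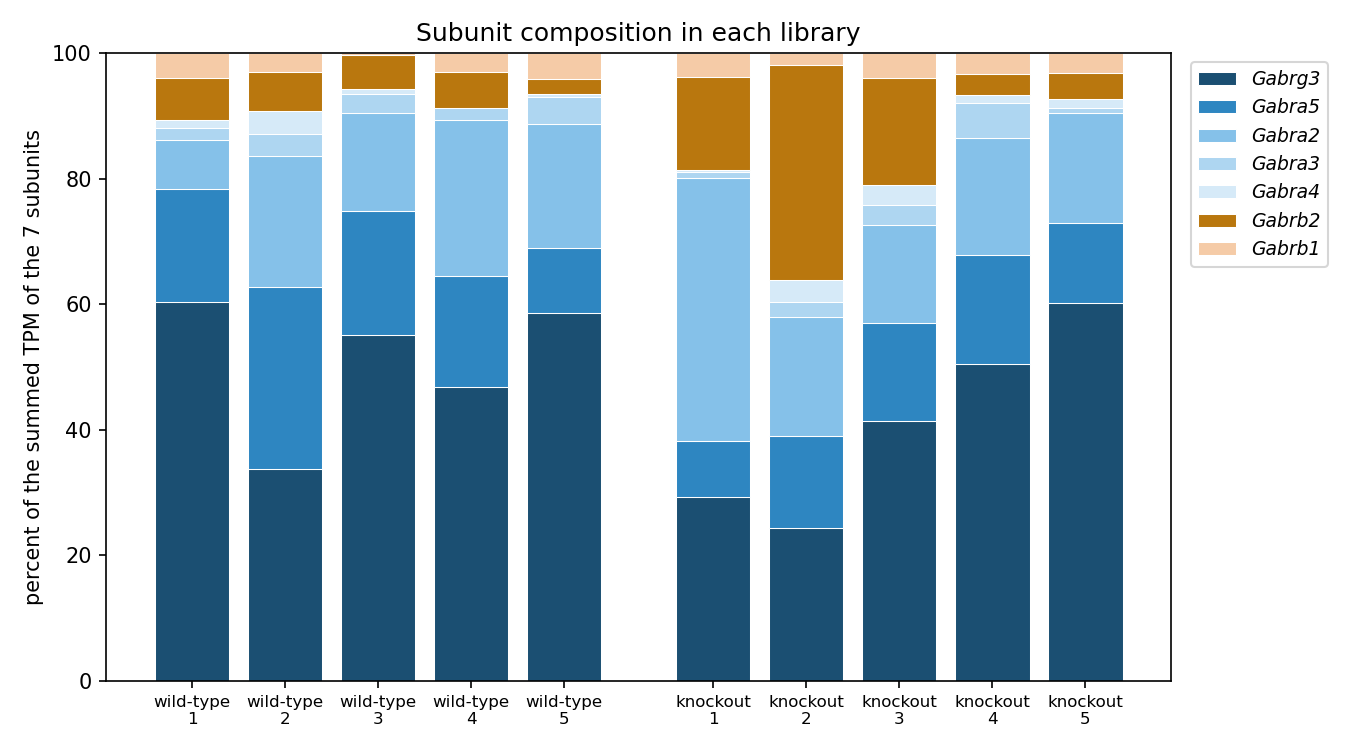
Share of each subunit gene in the summed TPM of the 7 (percent, stacked bars from 0 to 100) in each wild-type and knockout library. Gabrg3 forms the bottom part of each bar, from 24.3% in knockout 2 to 60.2% in wild-type 1, and Gabrb2 takes 14.8% to 34.2% in knockout 1 to 3.

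By the mean of log2(TPM + 1), the order of levels in wild-type was Gabrg3, Gabra5, Gabra2, Gabrb2, Gabra3, Gabrb1 and Gabra4. Gabrg3 was above Gabra5 and Gabra2 above Gabrb2 in 5 of 5 wild-type libraries, by 1.45 ± 0.80 and 1.68 ± 0.94 on the log2 scale. The neighbours Gabra5 and Gabra2 (0.12 ± 0.82), Gabra3 and Gabrb1 (0.29 ± 1.56), and Gabrb1 and Gabra4 (1.19 ± 1.92) did not differ beyond their spread, nor did Gabrb2 and Gabra3 (0.83 ± 0.97). In knockout the order was Gabrg3, Gabra2, Gabra5, Gabrb2, Gabrb1, Gabra3 and Gabra4, and no neighbours were in the same order in all 5 libraries. By mean TPM, Gabrb2 (63.8) came before Gabra5 (46.1) in knockout, and Gabrb1 (20.04) before Gabra3 (18.6) in wild-type. Among all tested genes, the wild-type mean of Gabrg3 was at the 97.1 percentile, those of Gabra5 and Gabra2 at 91.1 and 90.2, and that of Gabra4 at 23.6.

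The tandem neighbours Gabrg3 and Gabra5 differed from each other by amounts that overlapped between the genotypes. Gabrg3 minus Gabra5 within a library was 1.45 ± 0.80 in wild-type and 1.49 ± 0.53 in knockout on the log2 scale (SD, n = 5 each). The genotypes differed by 0.04 in this quantity (two-sided exact permutation p = 0.929). Both genes were highest in wild-type 1 and lowest in knockout 5. Knockout 5 was also the lowest library for Gabra2 and Gabra3, so this was not particular to the neighbours. Pearson's r on log2(TPM + 1) over the 10 libraries was 0.853 for Gabrg3 and Gabra5. It was 0.820 for Gabra5 and the X-linked Gabra3, and 0.246 to 0.708 for the remaining pairs of members. For the other adjoining pair, Gabra4 minus Gabrb1 ranged from -3.51 to 1.25 in wild-type and from -2.86 to 0.74 in knockout. These genes, with overlapping first exons, thus did not keep a fixed ratio. The wild-type extremes rest on low values, Gabra4 at 0.363 TPM in wild-type 4 and Gabrb1 at 2.40 TPM in wild-type 3.

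**Figure D4:**
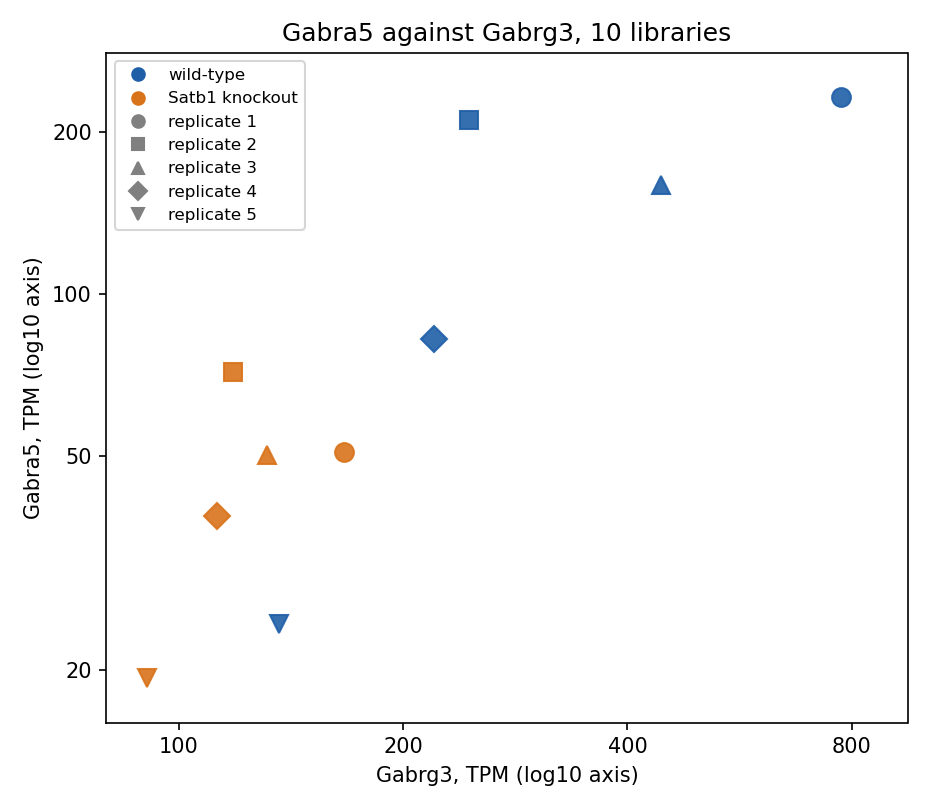
TPM of Gabra5 against TPM of Gabrg3 (log10 axes) in the 10 libraries, wild-type in blue and knockout in orange, with a symbol per replicate number. Wild-type 1 to 4 lie at the upper right, above 200 TPM of Gabrg3 and 80 TPM of Gabra5, and wild-type 5 lies among the knockout libraries.

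For each member, the 2 tested genes with the most similar pattern over the 10 libraries were named by Pearson's r on log2(TPM + 1), out of 10659 candidates. They were Mbd5 and Zfp553 for Gabrg3, Wasl and Zfp715 for Gabra5, Lars and Gtf2e1 for Gabra2, and Glg1 and Spg21 for Gabra3. They were Mmd and Tmem63c for Gabra4, Lcorl and Med13 for Gabrb2, and Tmem60 and Zc3h12b for Gabrb1. The 14 values of r ran from 0.928 to 0.983 and are the top of a long list over few libraries that share their scaling, so they are a description of pattern only.

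Genes around the receptor were counted from 5 lists. Of any list limma called 0 members at an adjusted p under 0.05, against 0.0% of all tested genes. Beside the counts of lower genes given below, 67.4% of all tested genes were lower in knockout. Of 12 other GABA-A subunit genes, 5 passed the filter, 4 of them lower and 1 higher in knockout, with a median log2 difference of -0.68. Gabrg1, the neighbour of Gabra2 on chromosome 5, was at 0.966 to 8.33 TPM (wild-type) and 0.446 to 6.11 TPM (knockout). Gabra6, known from cerebellar granule cells, was listed at 0 in all 10 libraries, and Gabrp and Gabrr2 were listed at 0 in all but knockout 2 (0.553 and 0.206 TPM). These 3 were picked after their values were seen.

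All 20 genes of receptor clustering and trafficking were tested, 17 lower and 3 higher, with a median of -0.52. Gphn, the scaffold gephyrin that holds receptors at inhibitory synapses, read 112, 112, 89.8, 8.21 and 39.7 TPM across wild-type 1 to 5, and knockout 1 to 5 gave 75.4, 52.9, 45.3, 24.6 and 23.4 TPM. Gphn was thus lowest in wild-type 4, and the genotypes overlapped. Rdx, whose product radixin anchors Gabra5-containing receptors to actin, had a log2 difference of -1.25 (SE 0.76). Rdx stood at 73.7 ± 51.4 TPM (wild-type) against 30.4 ± 27.4 TPM (knockout) (SD, n = 5 each). After median centring 12 of these 20 genes were lower, where 46.1% of all tested genes were.

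Genes that make GABA were low, and those of the GABA-B receptor, the slower G protein-coupled receptor, were abundant. The GABA-synthesizing enzyme gene Gad1 was listed at 0 in 7 libraries and reached 0.973 TPM in knockout 1, and Gad2 was at 0.752 to 3.59 TPM (wild-type) and 0.107 to 8.83 TPM (knockout). The vesicular GABA transporter gene Slc32a1 was at 0 to 0.582 and 0 to 1.18 TPM. Of the 9 genes of GABA synthesis, transport and breakdown 5 were tested, 3 lower and 2 higher. Aldh5a1, an enzyme of GABA breakdown, read 44.9, 107, 31.1, 16.1 and 4.35 TPM across wild-type 1 to 5, and knockout 1 to 5 gave 8.005, 31.0, 3.01, 5.81 and 2.27 TPM. Its log2 difference was -1.83 (SE 0.87; limma unadjusted p = 0.0489, adjusted p = 0.992), with the genotypes overlapping.

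The obligate GABA-B partners Gabbr1 and Gabbr2 stood at 203 ± 90.6 and 452 ± 102 TPM in wild-type and at 306 ± 248.6 and 508 ± 339 TPM in knockout (SD, n = 5 each). Their log2 differences were 0.41 (SE 0.58) and -0.08 (SE 0.55). Of 6 GABA-B genes 5 were tested, 3 lower and 2 higher. Kctd12, an auxiliary subunit, had a difference of -0.85 (SE 0.72) and Kctd16 one of -0.61 (SE 0.80).

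Of the transporters that set the chloride gradient, the extruder gene was far above the importer gene. Slc12a5, which encodes the potassium-chloride extruder KCC2, read 179, 375, 190, 171 and 161 TPM across wild-type 1 to 5, and knockout 1 to 5 gave 98.5, 238, 108, 179 and 153 TPM. Slc12a2, which encodes the chloride importer NKCC1, read 11.0, 9.46, 8.58, 5.13 and 0.671 TPM across wild-type 1 to 5, and knockout 1 to 5 gave 106, 15.99, 6.68, 1.11 and 1.97 TPM. Slc12a5 was the higher of the pair in 9 of 10 libraries, the exception being knockout 1. Slc12a5 differed by -0.46 (SE 0.52) between genotypes and Slc12a2 by 0.57 (SE 0.98), both within the spread. Of 10 genes on this list 8 were tested, 5 lower and 3 higher with a median of -0.23. The kinases that act on these transporters, Stk39 and Oxsr1, had differences of -1.39 (SE 0.74) and -0.91 (SE 0.80).

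**Figure D5:**
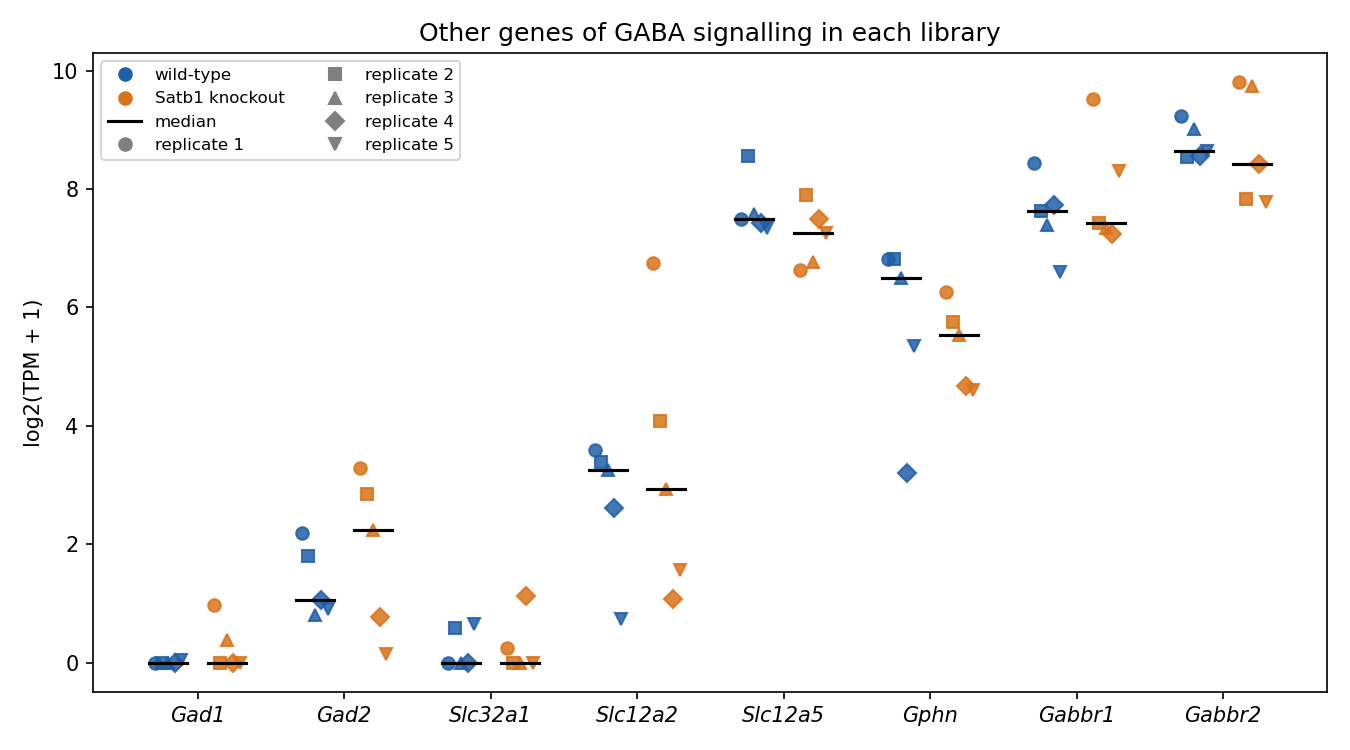
Level on the log2(TPM + 1) scale of genes for GABA synthesis and packaging (Gad1, Gad2, Slc32a1), chloride transport (Slc12a2, Slc12a5), receptor scaffolding (Gphn) and the GABA-B receptor (Gabbr1, Gabbr2) in each library. Wild-type is blue, knockout orange, symbols mark replicate numbers and black lines group medians. Slc12a5 lies above Slc12a2 in 9 of 10 libraries, and Gad1 is at 0 in 7.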

How the data were processed

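Ovation-amplified cDNA from sorted cells was sequenced as single-end reads, per the labels. The authors deposited log10(TPM + 1) values for 23746 gene entries in 10 libraries. Back-transformed on base 10, each library summed to 1000000 TPM. The submitters' processing notes list TopHat2 2.0.10, Cufflinks and the build mm10. The counting step, annotation, filters and strand setting were not given in the sources used here. TPM keeps no depth, so read depth is unknown, and amplification from little RNA can add spread between libraries. A listed 0 may be a failed estimate, since 8 of the 1100 genes whose median reached 100 TPM had a 0 somewhere.

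Entries named by a bare number (26, holding 0.0438% to 0.198% of TPM) were left out, and 240 repeated symbols were summed. The TPM were then converted to log2(TPM + 1), which understates changes of low genes. The filter kept genes reaching 1 TPM in 5 or more libraries, and these were fitted with limma 3.58.1 in R 4.3.3 (genotype as the only term, mean-variance trend, Benjamini-Hochberg adjustment over all 11744 genes, threshold 0.05). Each of the 7 members also got an exact permutation p (two-sided, 252 divisions of the libraries, unadjusted). Replicates came from different litters, per the series' design text. Whether a library held 1 animal or several is not stated. The limma script was checked on simulated data.

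The members and lists were chosen with earlier results of these data known. The named genes are the 7 members, Satb1, 8 preset pathway genes, the 2 members of each list with the smallest p, and the 2 genes most like each member. Gabra6, Gabrp and Gabrr2 were named after their values were seen. A few list members stayed in the counts but are not reported here. Alternatives covered the pseudocount, filter, scaling, replicate block, library weights, variance model, each library left out, and the 3 libraries that stood apart.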

Additional observations from a re-analysis of the deposited data

How the results depend on the processing

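No member passed a limma adjusted p of 0.05 under any of the 21 alternative settings, where the lowest adjusted p of a member was 0.651. Gabrg3, Gabra5, Gabra2 and Gabra3 were lower in knockout in all 21, at -1.59 to -0.93, -1.88 to -0.97, -1.07 to -0.23 and -1.44 to -0.77 on the log2 scale. The unadjusted p of Gabrg3 was under 0.05 in 17 of the 21 and that of Gabra5 in 6. Gabrg3 lost it (limma unadjusted p = 0.0531 to 0.112) without wild-type 1, wild-type 3 or knockout 5, and without the mean-variance trend (0.0559). Gabra4 turned positive with a pseudocount of 0.1 (0.083), after median centring (0.24) and quantile normalization (0.23), with the 3 libraries as a term (0.18), and without wild-type 1 or 2 or knockout 1, 4 or 5 (0.01 to 0.39; over each library left out, -0.69 to 0.39). Over each library left out, Gabrb1 ran from -0.94 to 0.050, turning positive without wild-type 1, and Gabrb2 from -0.46 to 0.67, turning negative without wild-type 5 (-0.45) or knockout 1 (-0.21), 2 (-0.46) or 3 (-0.06). Over all genes limma called 0 genes in the reported fit (389 at an unadjusted p under 0.05), 1 with the filter at 5 TPM, 1 without the mean-variance trend, 3 with library weights, and 0 to 1 with each library left out, the 1 arising without wild-type 3, 4 or 5. None of these genes was a member. Whether replicate numbers pair the samples could not be settled from so few libraries. Same-numbered deviations correlated at -0.03 to 0.36, and 2 of 5 wild-type libraries correlated best with their own number. With the replicate block limma called 0 genes and 0 members, with 830 genes at an unadjusted p under 0.05. The limma unadjusted p in that fit was 0.00796 for Gabrg3 and 0.0101 for Gabra5, and the adjusted p was 0.692 for both. Without wild-type 5, knockout 4 and knockout 5, the median Gabra4 share in knockout was 3.04% in place of 1.35%, 1 GABA-B gene was lower in place of 3, and 3 chloride genes in place of 5. After median centring 1 gene of GABA synthesis, transport and breakdown was lower in place of 3, and 3 chloride genes in place of 5. The cause of these changes was not tested. The median SE over all genes was 0.78 on the log2 scale, which limits what differences in 1 gene these libraries can show, and read depth is unknown.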
